A study of Homo sapiens with 6 samples.

Results

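The 7 genes described here encode proteins that add the phosphate on translation initiation factor eIF2 alpha or regulate its addition or removal. They are the 4 eIF2 alpha kinases EIF2AK1, EIF2AK2, EIF2AK3 and EIF2AK4, the kinase activator GCN1, and the phosphatase regulatory subunits PPP1R15A and PPP1R15B. They were picked by gene name from the 60612 genes of the deposited tables, and each name matched 1 gene. RNA was sequenced from 6 libraries, 3 labelled ABCF1 and 3 labelled NC-1, and all 6 carry the cell line name HepG2, a line derived from a human liver tumour. The series describes stable HepG2 lines made to overexpress ABCF1, including forms in which lysines are replaced by arginines. The sample labels give ABCF1 or NC-1 as the genotype and say neither which ABCF1 form was used nor whether a group is 1 clone. They name no treatment or time, and do not say what NC-1 stands for or whether the libraries of a group were grown separately. The p-values therefore measure the spread between libraries, which may be technical.

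Total counts were 62323034 to 77394510 per library, and the 7 genes took between 1843 and 21445 counts each in every library. The level of ABCF1 RNA went against the label, at 106 ± 4.05 CPM (counts relative to library size; SD, n = 3) in the libraries labelled ABCF1 and 158 ± 3.62 CPM in NC-1. Every direction is therefore given by label. Of 14 secreted liver proteins checked against the HepG2 label, all 14 stayed under 1 RPKM (a level normalised for transcript length and depth) in every library. Their summed level was 0.0823 to 0.278 RPKM in the libraries labelled ABCF1 and 0.148 to 0.603 RPKM in NC-1. The liver transcription factors HNF4A and CEBPA were present, at 114 ± 10.1 and 92.5 ± 9.25 CPM in the libraries labelled ABCF1 (SD, n = 3). On the first principal component 2 libraries, replicate 3 of the group labelled ABCF1 and replicate 2 of NC-1, had scores of 47.2 and 42.0, and the other 4 had -29.3 to -6.96. The side of that component is called the library set below. It was read from the counts, so p-values of fits that use it are not those of a planned design.

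Phosphorylated eIF2 alpha holds the exchange factor eIF2B inactive, which slows initiation on most messenger RNAs while favouring a few, such as that of the transcription factor ATF4. Each kinase answers another stress. EIF2AK1 (HRI) responds to low heme and mitochondrial stress, EIF2AK2 (PKR) to double-stranded RNA, EIF2AK3 (PERK) to unfolded proteins in the endoplasmic reticulum, and EIF2AK4 (GCN2) to uncharged transfer RNA and stalled ribosomes. GCN1 binds ribosomes and activates EIF2AK4, and in yeast it acts with GCN20, a protein of the same ATP-binding cassette family as ABCF1. PPP1R15A (GADD34), induced by stress, and PPP1R15B (CReP), made constitutively, bring protein phosphatase 1 to eIF2 alpha. The kinases are switched on mainly at the protein level, which transcript counts do not measure.

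Start-site sequences are shown for the 3 genes with the lowest unadjusted p among the 7, EIF2AK2, PPP1R15A and PPP1R15B, because the first is interferon-inducible and the other 2 are the stress-induced and constitutive phosphatase subunits. The sequences come from RefSeq (GRCh38.p14), run from 250 bases before to 50 bases after the start, and are given 5′ to 3′ on the gene's strand. EIF2AK2 is from chr2:37156931-37157230 (minus strand), PPP1R15A from chr19:48872171-48872470 (plus strand) and PPP1R15B from chr1:204411768-204412067 (minus strand). Capitals mark matches, on either strand, to 2 copies of GAAA set apart by any 2 bases (core of interferon response elements), TGATGNAA (core of composite sites for ATF4) or TGACGT (core of cAMP response elements).
EIF2AK2: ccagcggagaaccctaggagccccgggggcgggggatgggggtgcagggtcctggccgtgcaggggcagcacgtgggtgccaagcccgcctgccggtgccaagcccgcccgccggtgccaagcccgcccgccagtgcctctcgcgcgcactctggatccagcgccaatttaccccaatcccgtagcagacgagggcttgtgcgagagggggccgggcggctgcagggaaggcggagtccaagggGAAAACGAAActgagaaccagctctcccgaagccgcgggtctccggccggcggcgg
PPP1R15A: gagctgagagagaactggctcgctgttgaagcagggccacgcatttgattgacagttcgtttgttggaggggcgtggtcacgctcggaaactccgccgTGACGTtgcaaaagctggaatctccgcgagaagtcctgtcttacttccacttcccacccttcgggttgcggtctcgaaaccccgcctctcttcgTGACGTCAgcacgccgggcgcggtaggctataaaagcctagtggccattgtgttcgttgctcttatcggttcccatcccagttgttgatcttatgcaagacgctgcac
PPP1R15B: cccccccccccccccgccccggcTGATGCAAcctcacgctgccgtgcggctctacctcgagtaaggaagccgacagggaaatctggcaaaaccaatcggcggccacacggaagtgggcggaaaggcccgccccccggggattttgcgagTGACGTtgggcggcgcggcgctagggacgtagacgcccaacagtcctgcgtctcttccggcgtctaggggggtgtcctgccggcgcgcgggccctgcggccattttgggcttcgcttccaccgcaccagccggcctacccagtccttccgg
EIF2AK2 held 1 interferon-type match, starting 6 bases before the RefSeq start, and 3.57% of 35116 RefSeq promoters hold one. The deposited EIF2AK2 gene extends to 37157065, upstream of that start, so this match lies inside the deposited gene. PPP1R15A held 3 cAMP-type matches, the last 2 of which overlap in a palindrome, and PPP1R15B held 1, against 7.98% of promoters with at least 1. PPP1R15B also held 1 ATF4-type match, as 3.62% of promoters do. Start-site sequences of EIF2AK3, EIF2AK4 and GCN1 held none of the 3 motifs. EIF2AK1 had no entry among the promoter sequences used and was not searched. A match describes these letters only, and is not evidence of binding.

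By level per length, EIF2AK1 stood highest of the 7. Its deposited RPKM over the 6 libraries was 60.8 ± 4.70 (SD, n = 6), with a range of 53.7 to 64.7. GCN1 followed at 27.9 ± 6.59 RPKM and PPP1R15A at 26.1 ± 1.75 RPKM, and these neighbours overlapped, with GCN1 above PPP1R15A in 4 of 6 libraries. PPP1R15B was next at 18.8 ± 4.01 RPKM. The other 3 kinases were low, with EIF2AK3 at 6.72 ± 1.19 RPKM, EIF2AK4 at 6.14 ± 1.15 RPKM and EIF2AK2 between 2.76 and 5.27 RPKM. Their ranges overlapped, although EIF2AK3 was above EIF2AK4 and EIF2AK4 above EIF2AK2 in all 6 libraries. EIF2AK1 made up 75.9% to 81.6% of the summed RPKM of the 4 kinases in each library, and EIF2AK2 4.19% to 6.19%. The length that the authors used is not given in the sources used here. Counts and RPKM together imply 10560 to 11185 nucleotides for EIF2AK2 and 4660 to 4923 for EIF2AK1, so this order rests on long transcript models.

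**Figure D1:**
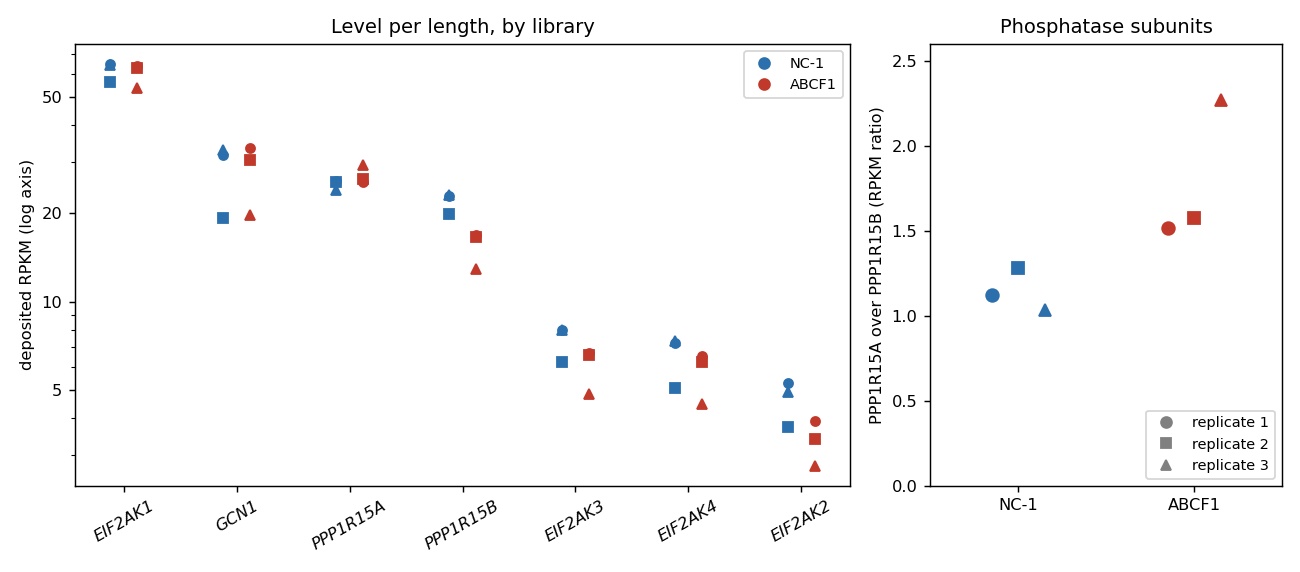
Left, deposited RPKM of each gene in each library on a log axis, ordered by mean; right, the RPKM of PPP1R15A over that of PPP1R15B in each library. EIF2AK1 lies at 53.7 to 64.7 RPKM, above all others, and the ratio runs from 1.04 to 1.28 in NC-1 and from 1.52 to 2.27 in the libraries labelled ABCF1, not adjusted for GC content.

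The series title names ABCF1 overexpression, but ABCF1 RNA was at the lower level under the ABCF1 label, so the comparison with NC-1 is one of labels. By edgeR's quasi-likelihood test with Benjamini-Hochberg adjustment over all 16545 tested genes, 0 of the 7 genes were called, and so were 0% of all tested genes. At an unadjusted p under 0.05 there were 2 of the 7, EIF2AK2 and PPP1R15B, against 14.8% of all tested genes. The median log2 fold change of the 7 was -0.13, with 3 positive, against 0.00 over all tested genes. limma-voom also called 0 of all genes, and the DESeq2 Wald test called 5.65% of the genes it gave an adjusted p (2.19% higher and 3.45% lower), and 1 of the 7, PPP1R15B, among the lower. In CPM, the groups did not overlap for 2 of the 7, PPP1R15A and PPP1R15B, and for 23.1% of all tested genes, so the share among the 7 lies near that of all genes.

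The phosphatase subunits had fold changes of opposite sign. PPP1R15B, the constitutive subunit (ENSG00000158615, chromosome 1, 204403381 to 204411817, minus strand, GRCh38), was at 98.7, 99.5 and 80.3 CPM in the libraries labelled ABCF1 and at 125, 114 and 131 CPM in NC-1, replicates 1 to 3. All 3 libraries labelled ABCF1 lay below all 3 of NC-1, as for 12.4% of all tested genes, and the same held in the deposited RPKM. The group levels were 92.9 ± 10.8 and 123 ± 8.82 CPM (SD, n = 3), and the log2 fold change was -0.41 (SE 0.11, edgeR adjusted p = 0.26), which did not pass. In bulk RNA, fewer cells that make a transcript and less of it per cell cannot be told apart. The DESeq2 Wald test gave -0.40 with an adjusted p of 0.040. Among settings that keep all 6 libraries and use no library set, that was the only call among the 7.

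PPP1R15A, the stress-induced subunit (ENSG00000087074, chromosome 19, 48872421 to 48876058, plus strand), was at 65.6, 69.0 and 79.9 CPM in the libraries labelled ABCF1 and at 61.4, 63.9 and 60.2 CPM in NC-1. The 3 libraries labelled ABCF1 were above all 3 of NC-1 in CPM, as for 10.7% of all tested genes. In RPKM the groups overlapped, since ABCF1 replicate 1 had 25.66 RPKM and NC-1 replicate 1 had 25.75. The log2 fold change was 0.21 (SE 0.10, edgeR adjusted p = 0.38) and did not pass. ABCF1 replicate 3 was the highest of the 6 libraries for PPP1R15A and the lowest for PPP1R15B.

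Within a library, the RPKM of PPP1R15A was 1.52, 1.57 and 2.27 times that of PPP1R15B in the libraries labelled ABCF1. In NC-1 the ratio was 1.12, 1.28 and 1.04. The means were 1.79 ± 0.42 and 1.15 ± 0.13 (SD, n = 3), without overlap. This ratio was chosen after the values of both genes were seen and was not tested. It is not adjusted for GC content, in which the 2 longest transcripts differ (58.8% for PPP1R15A and 43.4% for PPP1R15B). The log2 fold changes of PPP1R15A and PPP1R15B were 0.21 and -0.41, and 0.03 and -0.26 with the length and GC offset described below.

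**Figure D2:**
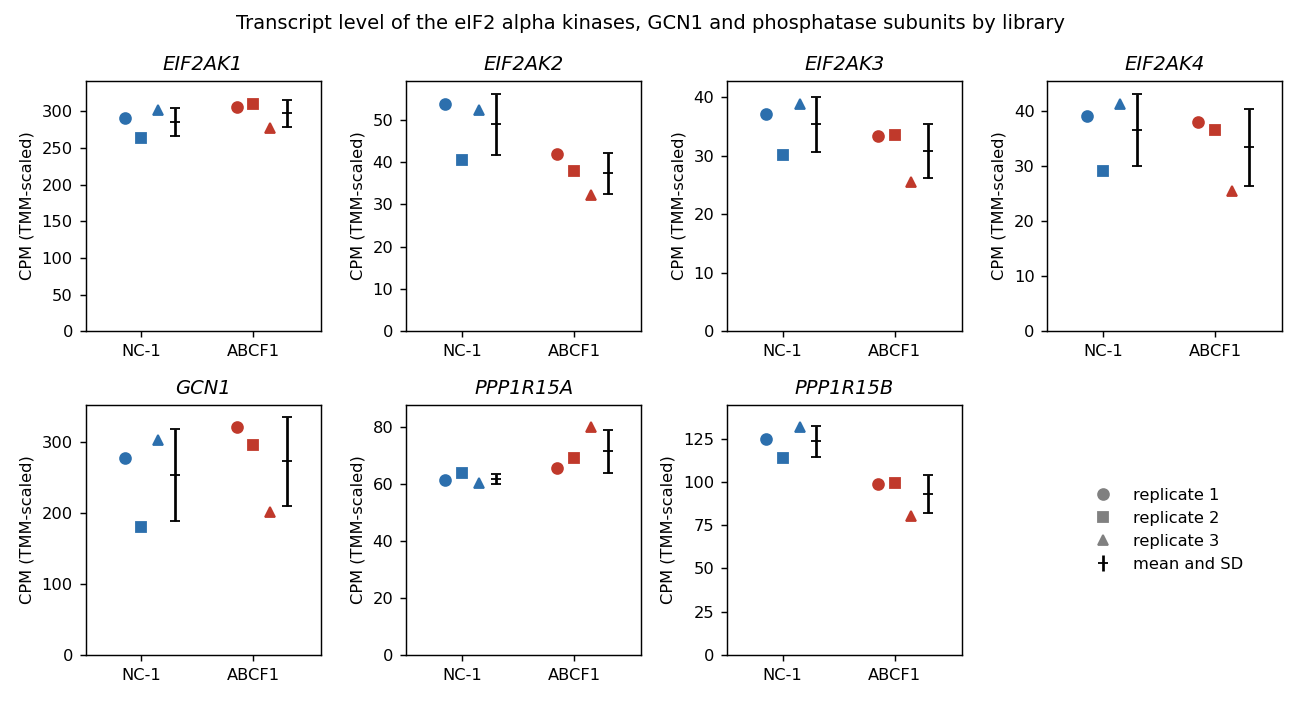
Each panel gives 1 gene's CPM by library (symbols, by replicate number) for NC-1 and for the libraries labelled ABCF1, with the group mean and SD beside them; axes start at 0. PPP1R15B (80.3 to 99.5 against 114 to 131 CPM) and PPP1R15A (65.6 to 79.9 against 60.2 to 63.9 CPM) are the genes whose groups do not overlap.

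Among the kinases, EIF2AK2, the double-stranded RNA sensor (ENSG00000055332, chromosome 2, 37099210 to 37157065, minus strand), was at 42.0, 37.8 and 32.3 CPM in the libraries labelled ABCF1 and at 53.8, 40.5 and 52.4 CPM in NC-1. NC-1 replicate 2 fell below ABCF1 replicate 1, so the groups overlapped. The log2 fold change was -0.39 (SE 0.15, edgeR adjusted p = 0.29). GPATCH11 lies on the opposite strand, shares 35 bases with EIF2AK2 and had 45.5% as many counts. The log2 fold change of GPATCH11 was -0.18 (SE 0.13, edgeR adjusted p = 0.53). Whether counting used strand is not given in the sources used here.

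EIF2AK3, the kinase of the endoplasmic reticulum (ENSG00000172071, chromosome 2, 88556741 to 88627464, minus strand), was at 33.4, 33.6 and 25.5 CPM in the libraries labelled ABCF1 and at 37.2, 30.1 and 38.9 CPM in NC-1. EIF2AK4, the kinase that GCN1 activates (ENSG00000128829, chromosome 15, 39934115 to 40035591, plus strand), was at 38.1, 36.6 and 25.4 CPM against 39.1, 29.04 and 41.3 CPM. In both genes the groups overlapped and each group's low library was the one that stands apart. Their log2 fold changes were -0.20 (SE 0.15, edgeR adjusted p = 0.56) and -0.13 (SE 0.19, edgeR adjusted p = 0.78).

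EIF2AK1, the heme-regulated kinase (ENSG00000086232, chromosome 7, 6022247 to 6059175, minus strand), had the smallest fold change of the 7 in this fit. It was at 306, 310 and 277 CPM in the libraries labelled ABCF1 and at 291, 264 and 302 CPM in NC-1, and the groups overlapped. The log2 fold change was 0.06 (SE 0.09, edgeR adjusted p = 0.80), and it was -0.04 when scaled by library size only or taken from the deposited RPKM, so its sign is not fixed. AIMP2, on the opposite strand, shares 1588 bases with EIF2AK1 and had 16.9% as many counts.

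GCN1, the ribosome-bound activator of EIF2AK4 (ENSG00000089154, chromosome 12, 120127202 to 120194715, minus strand), varied most among the libraries. It was at 321, 296 and 202 CPM in the libraries labelled ABCF1 and at 278, 180 and 303 CPM in NC-1. The 2 libraries that stand apart were the low ones, and the groups overlapped. The log2 fold change of 0.11 (SE 0.23, edgeR adjusted p = 0.86) was smaller than its error, and it became -0.09 without NC-1 replicate 2 and 0.29 without ABCF1 replicate 3. In 6 of the 7 genes, all but PPP1R15A, the lowest library of each group was the one that stands apart, as in 29.7% of all tested genes.

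With the library set as a covariate, chosen with its effect on these data known, edgeR called 4 of the 7 genes, against 25.3% of all tested genes. PPP1R15B fell by 0.41 on the log2 scale (SE 0.05, adjusted p = 0.0011) and EIF2AK2 fell by 0.38 (SE 0.06, adjusted p = 0.0025). EIF2AK3 fell by 0.20 (SE 0.06, adjusted p = 0.032), and PPP1R15A rose by 0.21 (SE 0.06, adjusted p = 0.024). EIF2AK1, EIF2AK4 and GCN1 were not called, at adjusted p of 0.35, 0.14 and 0.15. With the 2 libraries that stand apart left out, 2 of the 7 were called, PPP1R15B (-0.37, adjusted p = 0.013) and EIF2AK2 (-0.41, adjusted p = 0.017), against 10.8% of all genes tested there (5.68% higher and 5.1% lower). Between those 2 libraries themselves, ABCF1 replicate 3 over NC-1 replicate 2, the log2 ratio of CPM was -0.50 for PPP1R15B, -0.33 for EIF2AK2, -0.24 for EIF2AK3 and 0.32 for PPP1R15A, with no test for a single pair.

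Fold changes in these libraries moved with transcript GC content (Spearman rho 0.49 across 16357 genes, which are not independent replicates) and length (rho -0.28), and the 7 genes lie at different places on both. PPP1R15A has the most GC-rich of the 7 longest transcripts in GENCODE 29 (58.8% GC, 2378 nucleotides) and EIF2AK2 the most AT-rich and longest (38.7% GC, 10042 nucleotides). PPP1R15B has 43.4% GC and 5227 nucleotides, and the medians over the 16357 tested genes with a value are 49.2% and 3175 nucleotides. With a per-gene offset that removes each library's trend with length and GC, together with the library set, edgeR called 1 of the 7 genes, against 5.94% of the genes tested there (4.04% higher and 1.9% lower). That gene was PPP1R15B, which fell by 0.26 on the log2 scale (SE 0.04, adjusted p = 0.012). The fold changes of EIF2AK2 (-0.08, SE 0.06, adjusted p = 0.46), PPP1R15A (0.03, SE 0.05, adjusted p = 0.81) and EIF2AK3 (-0.09, SE 0.05, adjusted p = 0.42) were then within 2 SE of 0. EIF2AK1 was at 0.12 (SE 0.04, adjusted p = 0.085) and did not pass. With the offset and without the library set, no gene was called and PPP1R15B was at -0.26 (SE 0.07, edgeR adjusted p = 0.45).

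**Figure D3:**
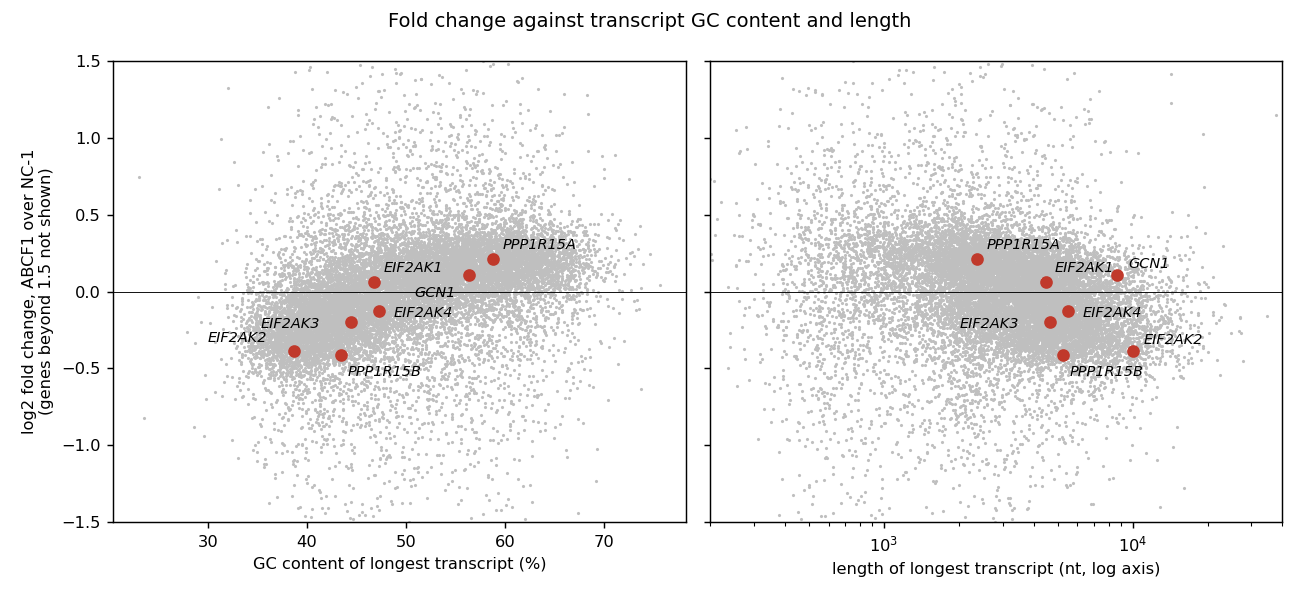
Log2 fold change of each tested gene (grey) and of the 7 genes (red) against GC content, left, and length on a log axis, right, of the longest GENCODE 29 transcript; genes outside the axes are not drawn. PPP1R15A (58.8% GC) is at 0.21 and EIF2AK2 (38.7% GC) at -0.39, the 2 ends of the 7 in GC content.

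**Figure D4:**
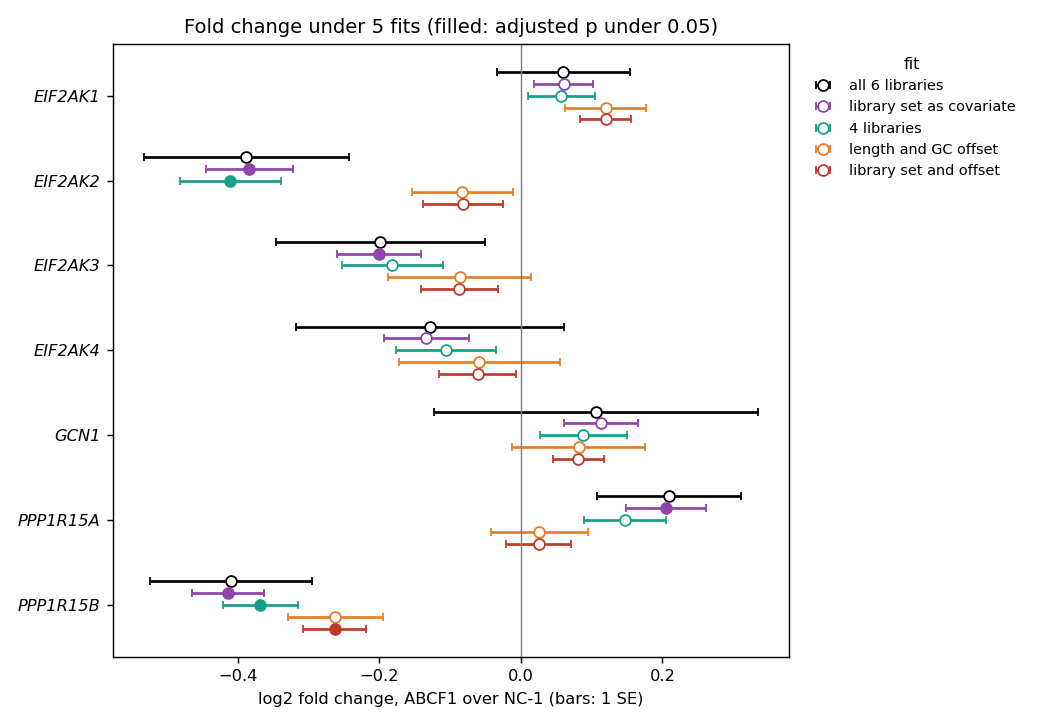
Log2 fold change with 1 SE for the 7 genes under 5 fits, filled where the adjusted p was under 0.05. PPP1R15B stays at or below -0.26 in all 5 fits, while EIF2AK2 and PPP1R15A move to -0.08 and 0.03 with the offset.

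The other genes of the pathway were taken from 6 lists that share no gene with the 7. Of their 112 tested genes edgeR called 0 without the library set (unadjusted p under 0.05 for 10 higher and 13 lower). Over all 16545 tested genes, 1037 higher and 1413 lower had an unadjusted edgeR p under 0.05. The DESeq2 Wald test called 2 of the 112, DNAJC3 and ABCF1, both lower. The counts that follow have the library set as a covariate. They stand beside the background of 12.9% of tested genes higher and 12.5% lower. Where the offset is added as well, the background is 4.04% of tested genes higher and 1.9% lower. Of the 8 subunits of eIF2 and eIF2B, 2 rose and 2 fell. EIF2B2 (log2 fold change 0.28, SE 0.06) and EIF2B5 (0.17, SE 0.06), subunits of the exchange factor, rose, and EIF2S2 (-0.22, SE 0.05) and EIF2S3 (-0.16, SE 0.04), the beta and gamma subunits of eIF2, fell. In CPM the groups overlapped for EIF2S2. EIF2S1, the phosphorylated alpha subunit, named here after its values were seen, was at 103 ± 9.09 against 107 ± 11.2 CPM (SD, n = 3) and was not called. Once length and GC were offset as well, EIF2B2 was the one subunit still called (0.36, edgeR adjusted p = 0.011).

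Of 18 genes listed as regulators and partners of the kinases, 3 rose and 6 fell with the library set. The list included ABCF1, for which the group is named, and ABCF1 was among the 6. Besides ABCF1, the lower genes with the smallest p were DNAJC3, an inhibitor of EIF2AK2 and EIF2AK3 (-0.39, SE 0.06), ZC3H15 (-0.34, SE 0.07) and MAP3K20, the ribosome collision kinase ZAK (-0.26, SE 0.05). DNAJC3 was at 54.1, 55.2 and 46.5 CPM in the libraries labelled ABCF1 and at 68.1, 67.2 and 68.7 CPM in NC-1, without overlap. For MAP3K20 the groups overlapped in CPM. With the offset added only ABCF1 of this list was called (-0.64, edgeR adjusted p = 1.4e-04), and DNAJC3 was at -0.16 (adjusted p = 0.097).

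Of 10 genes listed as catalytic subunits and partners of protein phosphatase 1, a list that also held G3BP1, 1 rose and 3 fell with the library set. PPP1CA, a catalytic subunit, rose by 0.27 (SE 0.04), and PPP1CB, another catalytic subunit, fell by 0.33 (SE 0.06) on the log2 scale. PPP1R12A, a myosin phosphatase subunit, fell by 0.37 (SE 0.08), with groups that overlapped in CPM, and G3BP1, a stress granule protein, fell by 0.25 (SE 0.05). With the offset added edgeR called 0 of the 10 (unadjusted p under 0.05 for 1 higher and 1 lower), and PPP1CA and PPP1CB were at 0.04 and -0.05. In that fit 1962 higher and 1468 lower of all 16357 tested genes had an unadjusted edgeR p under 0.05.

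Of 30 genes made up of ATF4 and its known targets, 9 rose and 3 fell with the library set, with a median log2 fold change of 0.08. DDIT4, an inhibitor of mTORC1 signalling (0.18, SE 0.04), and SARS1, a seryl-tRNA synthetase (0.25, SE 0.05), rose. XPOT, a transfer RNA exporter (-0.35, SE 0.07), and CEBPG, a partner of ATF4 (-0.23, SE 0.05), fell. ATF4 itself, at 226 ± 30.8 against 220 ± 17.3 CPM, and DDIT3 (CHOP), at 10.97 ± 1.83 against 10.5 ± 2.64 CPM (SD, n = 3), both named after their values were seen, were not called. With the offset the list median was -0.02, and 1 gene was called, CTH, a transsulfuration enzyme (0.20, edgeR adjusted p = 0.042).

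Of 18 genes of the unfolded protein response of the endoplasmic reticulum, the pathway that EIF2AK3 belongs to, 4 rose and 4 fell with the library set. CALR, a chaperone, rose by 0.29 (SE 0.05), while SEL1L, of the degradation machinery, and the chaperones HSP90B1 and DNAJB11 fell by 0.29, 0.17 and 0.27 on the log2 scale. In CPM the groups overlapped for SEL1L, HSP90B1 and DNAJB11, and not for CALR. With the offset CALR (0.13, edgeR adjusted p = 0.046) and PDIA6 (0.15, edgeR adjusted p = 0.023) were called. HSPA5, the chaperone that holds EIF2AK3 inactive, was at 1414 ± 60.9 against 1503 ± 97.3 CPM (SD, n = 3) and was not called in either fit.

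Of 28 tested interferon-stimulated genes, the class to which EIF2AK2 belongs, 4 rose and 5 fell with the library set, with a median of 0.11. ISG15 (0.37, SE 0.04), IFITM3 (0.33, SE 0.05) and BST2 (0.22, SE 0.05) rose, whereas EIF2AK2 and the RNA sensor DDX58 (-0.33, SE 0.08) fell. In CPM the groups overlapped for ISG15, IFITM3, BST2 and EIF2AK2, and not for DDX58. With the offset 1 of the 28 was called, IFIT1 (0.28, edgeR adjusted p = 0.018), and ISG15 was at 0.10 (adjusted p = 0.13). The part of length and GC content in these list counts was not tested beyond the offset.

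**Figure D5:**
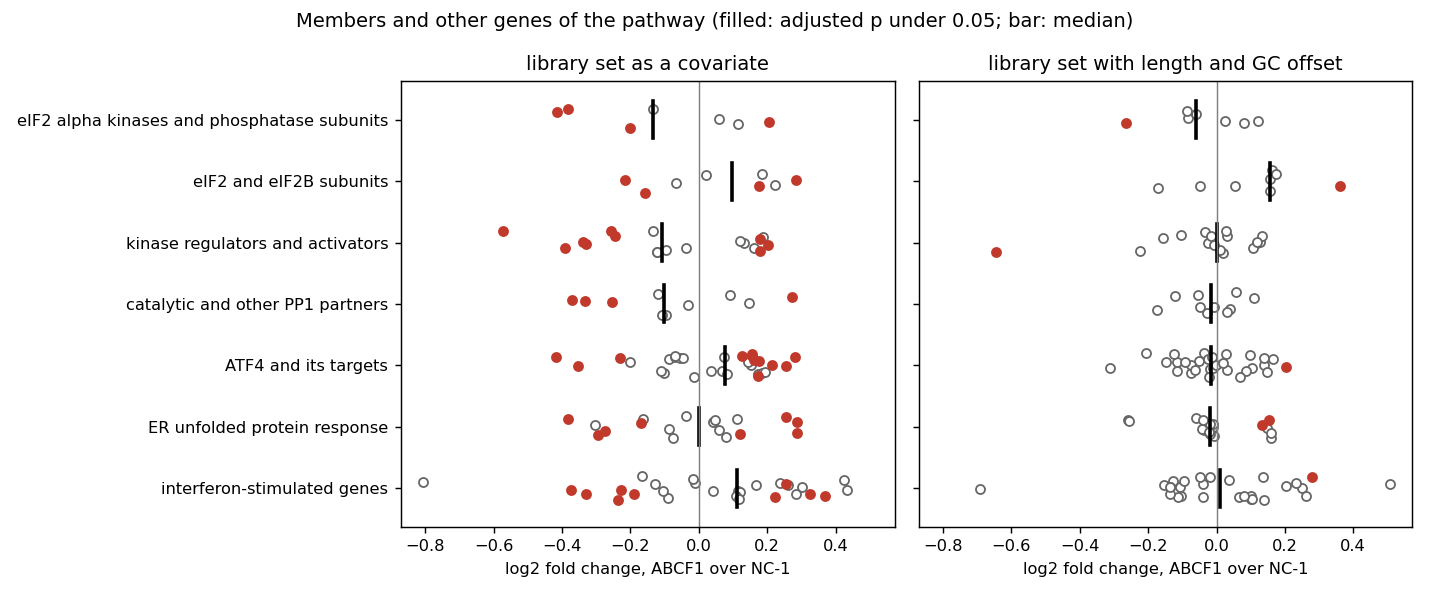
Log2 fold change of the 7 genes and of the tested genes of the 6 pathway lists (points, spread vertically at random; bar, median) with the library set as a covariate, left, and with the offset for length and GC, right; filled points had an adjusted p under 0.05. The 7 genes have 4 filled points at left and 1, PPP1R15B, at right.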

How the data were processed

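RNA was measured in 6 libraries made, per the labels' protocols, from 1 µg of Trizol-extracted total RNA with a TruSeq RNA kit. The authors deposited gene counts, whole numbers without normalization, and RPKM for the same genes. Tools named in the submitters' processing notes, without roles, are HISAT2 and StringTie, then edgeR, CASAVA 1.8, FastQC and Trimmomatic, with build GRCh38. Annotation release and strand setting: not given in the sources used here.

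The test was edgeR's quasi-likelihood F test (version 4.0.16, R 4.3.3) on TMM-normalized counts after filterByExpr, two-sided. A gene was called at a Benjamini-Hochberg adjusted p under 0.05 over all tested genes. All 7 members passed the filter. SE is the size of the log2 fold change over the square root of F, and fold changes are ABCF1 over NC-1. CPM uses TMM-scaled library sizes. limma 3.58.1, DESeq2 1.42.0 and log2(RPKM + 1) or log2(RPKM + 0.1) served as alternatives. The log2(RPKM + 1) scale in particular understates changes of low genes. DESeq2 gave no adjusted p to 5456 genes. The offset used smooth terms in mgcv 1.9.3 for length and GC of the longest GENCODE 29 transcript. The edgeR fit was tested on simulated data. It did not meet a first recovery limit set over all genes. It met the same limit set afterwards on genes of 10 CPM or more, where all members lie by level. Recovery was not tested for changes as small as those of the members, or with 2 libraries that stand apart. No pair of libraries within a group agreed within sampling noise (chi-square per degree of freedom of 11.4 or more over genes with at least 20 counts).

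The members, lists, tests and alternatives were chosen with earlier results of these data known. All 7 members were named, with up to 4 called genes per list by p, or the 2 most abundant where fewer than 2 were called, applied again to the library set fit. The 2 tested genes of 10 CPM or more nearest to each member in pattern were named too, except 1 that is not reported here.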

Additional observations from a re-analysis of the deposited data

How the results depend on the processing

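Each member had 19 alternative settings. PPP1R15B stayed lower (-0.51 to -0.26, adjusted p from 0.0011 to 0.62), EIF2AK2 lower (-0.51 to -0.08, 0.0025 to 0.78), EIF2AK3 lower (-0.30 to -0.07, 0.032 to 0.86) and PPP1R15A higher (0.03 to 0.26, 0.024 to 0.93). EIF2AK1 turned to -0.039 with library size only, log2(RPKM + 1) and log2(RPKM + 0.1). Leaving out 1 library at a time gave -0.27 to 0.041 for EIF2AK4 and -0.088 to 0.29 for GCN1. Calls gained were PPP1R15B at -0.40 (DESeq2 Wald test), -0.41 (library set), -0.37 (4 libraries) and -0.26 (library set with offset), EIF2AK2 at -0.38 (library set) and -0.41 (4 libraries), and EIF2AK3 at -0.20 and PPP1R15A at 0.21 (library set). The cause was not tested. Over all genes, 0 higher and 0 lower became 243 and 383 (DESeq2 Wald test), 2129 and 2064 (library set), 950 and 853 (4 libraries), and 661 and 310 (library set with offset). Over the genes of all lists, label check included, 0 and 0 became 0 and 2, 25 and 23, 11 and 8, and 6 and 1 in the same order.

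Same-numbered libraries had correlations of deviations of 0.11, -0.11 and -0.15, which gave no sign of pairing by number. The 2 libraries that stand apart had 0.26, and that split could hide a weaker pairing. With the replicate number as a block, edgeR called 0 genes, and PPP1R15B was at -0.41 (adjusted p = 0.62). The members had 1843 or more counts in every library.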

Other observations

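The genes nearest to each member in pattern, by the root mean square difference of log2 CPM centred per gene over the 6 libraries among 9484 genes, are given as a description. They were IREB2 and CLIP1 for EIF2AK2 (0.029 and 0.031), TMEM245 and TRAF6 for EIF2AK3 (0.023 and 0.028), and SP1 and PARP4 for EIF2AK4 (0.011 for each). For EIF2AK1 they were NCAPH and ARIH2 (0.019 and 0.020), for GCN1 MDC1 (0.024), for PPP1R15A GLA and TIMM44 (0.023 for each), and for PPP1R15B PCM1 and POLK (0.023 and 0.024). The members' own root mean square deviation ran from 0.083 for EIF2AK1 to 0.31 for GCN1.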
